A study of Mus musculus with 3 samples.

Results

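The MHC class I presentation genes described here are 10 genes taken by symbol from a deposited table of 57180 mouse genes: the light chain B2m, the heavy chains H2-K1 and H2-D1, the peptide transporter chains Tap1 and Tap2, the loading factor Tapbp, the transactivator Nlrc5 and the immunoproteasome subunits Psmb8, Psmb9 and Psmb10. All 10 were in the table, and all 10 had a count in every library. They were measured in 3 libraries of wild-type (WT) mouse cells that looked like black balls and came from the vestibule, where the inner ear senses balance. The labels list these cells as macrophages and as immune cells, and the title of the series names melanocytes, which make pigment. In all, 18 cells from 9 mice were lysed, with 3 mice per group, and their polyadenylated RNA was copied and amplified with the SMART-Seq HT kit. There was 1 labelled group and no control. The sources used here do not say which groups the 3 mice per group refer to. They give neither strain, age and sex nor the division of cells and mice among the libraries.

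MHC class I molecules display short peptides from a cell's own proteins on its surface, where CD8 T cells read them. The proteasome cuts proteins into peptides, the TAP transporter moves the peptides into the endoplasmic reticulum, and tapasin holds an empty heavy chain with its light chain beside the transporter until a peptide fits. Interferons are known to induce most of these genes, in part through NLRC5, and macrophages as well as other nucleated cells make class I molecules.

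Each library held between 14095521 and 18460546 counts, and 3 counts, taken as the floor of detection, corresponded to 0.163, 0.199 and 0.213 CPM (counts scaled to a fixed total per library) in replicates 1, 2 and 3. Nothing in the labels ties a library to its own animals. The SD (n = 3, as for every ± below) thus measures only how far these libraries differ, which can be technical. The p-values below test a level against a fixed threshold, or the sign of a within-library difference, over these libraries and not over animals. As a check of the labelled cell type, 15 of 18 macrophage markers stood above 1 TPM (Lyz2, Ctss and C1qb highest; Cx3cr1, Itgam and Cd163 did not pass), as did 9 of 15 melanocyte markers (Dct, Mlana and Pmel highest; Oca2 and Mc1r at 0 in 2 of 3 libraries). The summed TPM was 9010, 5794 and 6583 for macrophage markers in replicates 1, 2 and 3, and 2519.6, 2281 and 2738 without Lyz2, which alone gave most of it. Melanocyte markers summed to 582, 707 and 715 TPM. Of 12 pan-leukocyte markers 9 passed, and Ptprc, the gene of CD45, did not, at 0.360, 0.626 and 0.931 TPM. All 12 hair cell markers and 11 of 12 markers of the supporting epithelium passed too. So did 9 of 10 of fibroblasts and 8 of 11 of Schwann cells and glia, beside 37.6% of all genes tested. Fibroblast markers summed to 13130.2, 13351 and 10032 TPM, above the macrophage sum in every library, or to 2925, 4194 and 5379 TPM without Coch. That order turned on the highest genes. Without Coch and Otos the fibroblast sum was 565, 764 and 871 TPM. Macrophage markers without Lyz2 and Ctss summed to more in every library, at 1296, 1426 and 2096 TPM. Schwann cell and glia markers summed to 8620.2, 6869 and 9776 TPM, mostly from S100b, and erythroid markers to between 21791 and 51507 TPM. Of 8 B cell markers listed 2 passed, Ighm and Cd79a, while Ms4a1 had 0 counts in all 3 libraries. The B cell markers summed to 881, 879 and 384 TPM in replicates 1, 2 and 3, mostly from Ighm. RNA of several cell types was thus in each library. Class I genes are used by most cell types, and the share of each cell type in the levels below was not tested. In such summed libraries, fewer cells of a type and less RNA per cell cannot be told apart.

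Levels are given as TPM, which divides counts by gene length and then scales each library to a fixed total, on 2 length scales, because the length behind the deposited FPKM mattered for these genes. Among 12668 genes with more than 1 annotated transcript, that length equalled the summed length of all distinct exon records, in which overlapping exons count several times, for 91.5% of genes within 1%, and its median ratio to the principal transcript was 2.16. For H2-K1 it came to 10612 bp, although the gene itself spans 4331 bp and its principal transcript measures 1619 bp. Relative to the principal transcript it was 6.55 times as long for H2-K1, 5.17 for Psmb9, 3.98 for Tap1, 3.27 for Psmb8, 3.09 for Psmb10, 2.37 for Tapbp, 1.72 for H2-D1, 1.56 for Tap2 and 1.51 for Nlrc5, and equal for B2m. The 10 genes are therefore given on the deposited scale (TPM) and with principal transcript lengths from GENCODE M21 (principal-transcript TPM). Values of other genes are on the deposited scale unless stated, and their order within a list can change with the length used.

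The class I genes were present over a wide range of levels, from B2m, among the most abundant transcripts, to Tap1 and Nlrc5 below 1 TPM on the deposited scale. In limma's moderated test of the mean log2(TPM + 1), 8 of the 10 stood above 1 TPM, beside 10264 of 27265 genes tested (37.6%). Above 10 TPM stood 5 of the 10, namely B2m, H2-D1, Psmb10, Psmb8 and H2-K1, beside 4017 genes (14.7%). With principal transcript lengths the same counts were 8 of 10 beside 40.2% of genes above 1 TPM, and 5 of 10 beside 17.1% above 10 TPM. Where genes with 0 counts in all libraries were kept in the test, 5 of the 10 passed above 1 TPM and 1 above 10 TPM, beside 12.1% and 2.04% of all 57180 genes. The median of the 10 genes was 19.4 TPM, or 52.1 principal-transcript TPM, beside 2.24 TPM and 2.48 principal-transcript TPM over all genes tested. These 10 genes were not chosen at random, so the shares describe them and are no test of the group. The counts of the marker lists above and of the lists below are to be read beside the same shares of all genes tested. They are no test either. With principal transcripts the markers above 1 TPM were 14 of 18 for macrophages, 11 of 15 for melanocytes and 11 of 12 for pan-leukocyte genes. They were 11 of 12 for hair cells, 10 of 12 for the supporting epithelium and 8 of 10 for fibroblasts. For Schwann cells and glia they were 8 of 11, and for B cells 3 of 8.

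**Figure D1:**
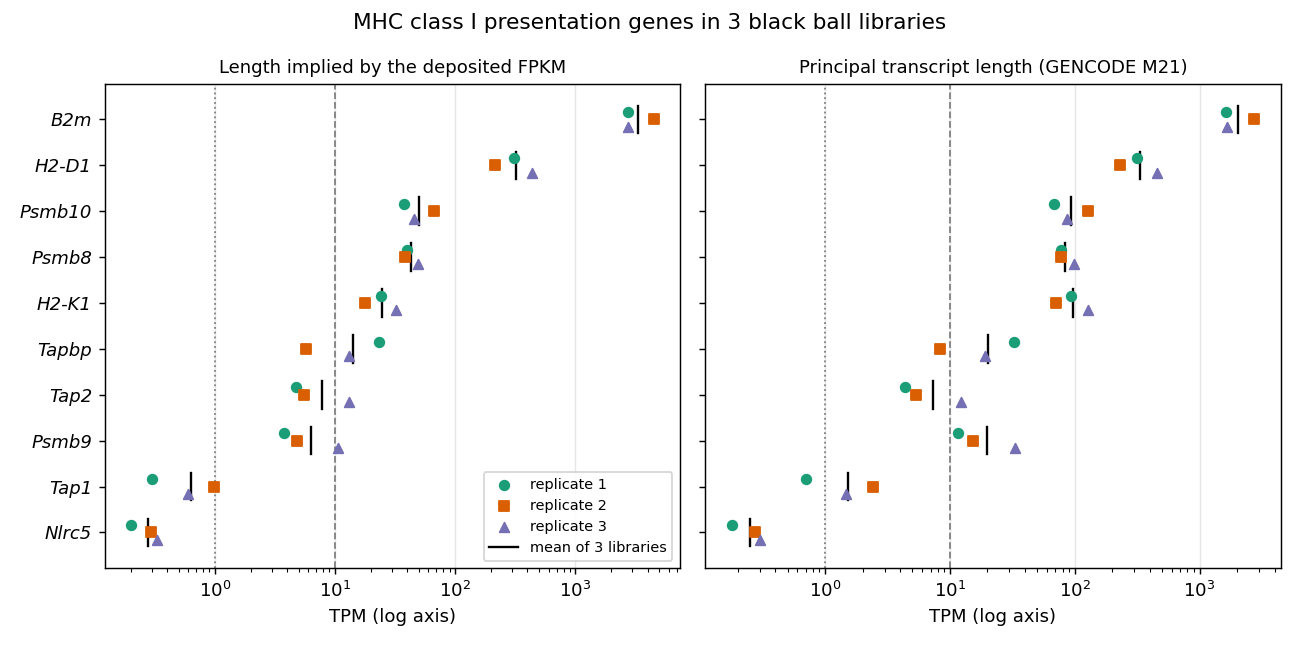
Level of each class I presentation gene in each library, on a log axis, as TPM with the length implied by the deposited FPKM (left) and with the principal transcript length (right). Points are libraries, black bars the mean of 3 libraries, the dotted line 1 TPM and the dashed line 10 TPM. B2m lies furthest right at 3335 ± 998 TPM and Nlrc5 furthest left at 0.276 ± 0.0676 TPM, and H2-K1, Psmb9 and Tap1 shift most to the right between the panels.

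B2m encodes beta-2 microglobulin, the light chain that every classical class I heavy chain needs to fold and reach the surface (chromosome 2, 121978167 to 121983564, GRCm39). It had 17618, 26079 and 15696 counts in replicates 1, 2 and 3, which gave 2759.7, 4488 and 2757 TPM. Its mean of 3335 ± 998 TPM ranked 34th of all genes tested, and it was highest in replicate 2, with replicates 1 and 3 nearly equal. Its principal-transcript level was 2016 ± 636 TPM, or rank 47, and it passed both tests (limma, adjusted p = 1.32e-05 above 1 TPM and 0.000111 above 10 TPM). The Patl2 gene spans the whole of B2m and had 0 counts in all 3 libraries.

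H2-D1 and H2-K1 encode the classical heavy chains, which hold the peptide, and lie apart in the mouse MHC on chromosome 17 (H2-K1 at 34214991 to 34219321 and H2-D1 at 35481706 to 35486475, GRCm39). H2-D1 had 8409, 5304 and 10560 counts, or 313, 217 and 440.4 TPM, in replicates 1, 2 and 3 (mean 323 ± 112 TPM). H2-K1 had 1904, 1268 and 2250 counts, or 24.2, 17.7 and 32.0 TPM (mean 24.6 ± 7.19 TPM). Both heavy chains were highest in replicate 3 and lowest in replicate 2, the library in which B2m was highest. Both passed the test against 1 TPM (limma, adjusted p = 1.44e-05 for H2-D1 and 0.0001 for H2-K1) and against 10 TPM (0.000138 and 0.0186). The call of H2-K1 above 10 TPM ended without replicate 1 (limma, adjusted p = 0.111), while on the principal-transcript scale H2-K1 stood at 97.2 ± 28.3 TPM (adjusted p = 0.000226 above 10 TPM).

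The promoters of these 3 genes, from 250 bases before to 50 bases after the RefSeq start (GRCm38.p6), are shown because interferon, NF-kappa B and the NLRC5 complex are known to act on class I genes through short elements near the start. Capitals mark matches, on either strand, to the interferon-stimulated response element (GAAA, any 2 bases, GAAA), the Y box (CCAAT), the core of the X2 box (TGACG) and the kappa B motif (GGGA, any base, TT, any base, CC). The windows are chr2:122147437-122147736 on the plus strand for B2m, chr17:34000298-34000597 on the minus strand for H2-K1 and chr17:35262844-35263143 on the plus strand for H2-D1.
B2m: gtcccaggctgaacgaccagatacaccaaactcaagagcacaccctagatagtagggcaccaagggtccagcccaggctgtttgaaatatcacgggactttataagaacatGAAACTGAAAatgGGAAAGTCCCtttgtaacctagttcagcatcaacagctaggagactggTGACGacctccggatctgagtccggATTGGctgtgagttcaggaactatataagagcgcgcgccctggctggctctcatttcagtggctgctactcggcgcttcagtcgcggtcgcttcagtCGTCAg
H2-K1: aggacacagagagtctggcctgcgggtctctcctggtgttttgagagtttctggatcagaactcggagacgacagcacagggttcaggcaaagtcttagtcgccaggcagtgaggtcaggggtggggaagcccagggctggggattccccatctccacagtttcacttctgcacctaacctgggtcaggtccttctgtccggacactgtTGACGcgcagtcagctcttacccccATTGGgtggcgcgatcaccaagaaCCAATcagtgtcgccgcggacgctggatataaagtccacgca
H2-D1: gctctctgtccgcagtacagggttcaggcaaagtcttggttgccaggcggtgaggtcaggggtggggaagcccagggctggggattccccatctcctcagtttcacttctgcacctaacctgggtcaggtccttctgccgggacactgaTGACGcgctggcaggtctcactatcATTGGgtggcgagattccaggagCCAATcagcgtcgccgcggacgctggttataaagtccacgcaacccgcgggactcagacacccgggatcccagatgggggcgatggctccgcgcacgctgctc
The B2m window held the response element at position -139 from the start and the kappa B match at position -126, then an X2 core at -78, a Y box at -53 and another X2 core at 44, after the start. In H2-K1 and H2-D1 an X2 core was followed by 2 Y boxes in opposite orientation, at -41, -16 and 8 in H2-K1 and at -101, -76 and -53 in H2-D1. RefSeq gives H2-K1 another start, not shown, from which the same 3 elements lie at -55, -30 and -6. The 2 heavy chain windows were identical at 211 of 239 aligned bases (88.3%), against 50.4% for B2m with H2-K1 and 56.7% for B2m with H2-D1. Of 32851 mouse promoters of the same length, 3.44% held the response element, 1.2% the kappa B motif, 20.8% the X2 core and 37.4% the Y box, so the Y box and the X2 core are common. Neither heavy chain window matched the response element or the kappa B motif as spelled here. Sites spelled otherwise were not searched, so a window without a match may still hold such a site. Both heavy chain windows hold the letters ggggattcccc, which are similar to the kappa B motif and not matched by its spelling here. A match describes letters only and no binding.

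H2-K1 was lower than H2-D1 in every library, and the ratio between them varied little. With principal transcript lengths H2-K1 stood at 29.4%, 31.0% and 27.7% of H2-D1 in replicates 1, 2 and 3, against 7.73%, 8.16% and 7.27% on the deposited scale. As within-library log2(TPM + 1) differences, H2-K1 minus H2-D1 was -1.76 ± 0.09 with principal transcripts, -3.64 ± 0.10 on the deposited scale and -2.14 ± 0.09 in CPM without length. The size of this difference thus depended on the length used, and its sign did not.

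The coding sequences of the 2 heavy chains are 91.4% identical (984 of 1077 aligned bases), and the sources used here do not say how reads that match both were assigned. The longest run they share is 91 bases, inside both coding sequences, from base 828 of the H2-K1 principal transcript and from base 1131 of that of H2-D1. It is shown because a read within it cannot be given to 1 of the 2 genes.
Run shared by H2-K1 and H2-D1: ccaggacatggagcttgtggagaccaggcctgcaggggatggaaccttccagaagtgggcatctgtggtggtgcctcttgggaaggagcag
Of all windows of 50 bases along the H2-K1 transcript, 8.79% occurred in a transcript of another gene, most often H2-D1 (6.94%), and for H2-D1 the share was 14.3%, most often with H2-Q1 (7.4%). With windows of 100 bases no H2-K1 window and 4.64% of H2-D1 windows were shared. No 50-base window was shared for B2m, Nlrc5, Psmb8, Psmb9 or Psmb10. Levels of both heavy chains are uncertain for this reason, by an amount that shares of exact windows do not measure. The alleles of the mice may also differ from those of the reference, since no strain is stated.

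B2m stood above the sum of H2-K1 and H2-D1 in 3 of 3 libraries. The light chain had 3.96, 9.17 and 2.85 times the principal-transcript TPM of the 2 heavy chains together in replicates 1, 2 and 3, and 8.19, 19.2 and 5.84 times on the deposited scale. The log2(TPM + 1) difference, B2m minus heavy chains, was 2.23 ± 0.87 with principal transcripts and 3.28 ± 0.88 on the deposited scale. Replicate 2 gave the largest excess on both scales. The 2 heavy chains together had 411, 300 and 587 principal-transcript TPM in replicates 1, 2 and 3. That sum leaves out the non-classical class I genes described below, which summed to 418, 405 and 456 principal-transcript TPM.

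Peptide supply by the TAP transporter, whose 2 chains form 1 pump, was represented unequally. Tap2 (chromosome 17, 34422501 to 34435295) had 188, 202 and 463 counts, or 4.72, 5.58 and 13.1 TPM, in replicates 1, 2 and 3 and passed the test against 1 TPM at 7.78 ± 4.58 TPM (limma, adjusted p = 0.00546). Tap1 (chromosome 17, 34406527 to 34416199) had 26, 79 and 47 counts, or 0.298, 0.996 and 0.605 TPM, and did not pass (0.633 ± 0.350 TPM, limma, adjusted p = 1.0). Its counts lay above the floor in each library, and their exact 95% binomial intervals, which cover counting error only, ran from 0.920 to 2.06 CPM in replicate 1, from 4.15 to 6.53 in replicate 2 and from 2.45 to 4.43 in replicate 3. The interval of replicate 1 lay below the others. These intervals treat each read as a separate draw, and in amplified RNA reads copied from the same molecule would make them too narrow. Tap1 did not pass with principal transcripts either, at 0.699, 2.43 and 1.46 TPM (limma, adjusted p = 0.478). Tap1 minus Tap2 was -2.33 ± 0.72 on the deposited log2(TPM + 1) scale and -1.66 ± 0.78 with principal transcripts, lower in 3 of 3 libraries. The 2 chains share 25 windows of 50 bases, 0.861% of those of Tap1 and 0.737% of those of Tap2.

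Tapbp encodes tapasin, which bridges the heavy chain and the transporter (chromosome 17, 34134873 to 34148266). It had 1200, 268 and 600 counts, or 23.5, 5.77 and 13.2 TPM, in replicates 1, 2 and 3. Unlike the heavy chains, Tapbp was highest in replicate 1, and its highest library held 3.66 times the CPM of its lowest, replicate 2. It stood above 1 TPM (14.1 ± 8.91 TPM, limma, adjusted p = 0.00229) and not above 10 TPM, although in CPM without gene length it passed the threshold of 10 (limma, adjusted p = 0.00749). Zbtb22 overlaps Tapbp over 3422 bp and had 130, 0 and 277 counts, and the lncRNA Gm19412 overlaps it over 1209 bp and had 317, 165 and 95 counts in the same libraries. The sources used here do not say whether reads were counted by strand, so reads of these overlaps may be split between the genes.

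The factors that load and trim peptides beside tapasin were counted as a list of 8 genes, of which 6 stood above 1 TPM and 4 above 10 TPM. The oxidoreductase Pdia3 stood at 202 ± 60.9 TPM, the chaperone calnexin (Canx) at 84.3 ± 6.29 TPM and calreticulin (Calr) at 60.7 ± 18.6 TPM. The glucosidase subunit Ganab followed at 26.2 ± 11.3 TPM, and the trimming enzymes Lnpep and Erap1, named after their values were seen, stood at 7.99 ± 3.39 and 7.90 ± 3.86 TPM. Tapbpl, a peptide editor related to tapasin, was uneven at 18.2, 0.881 and 4.05 TPM in replicates 1, 2 and 3 and did not pass (limma, adjusted p = 0.101). Its order over the libraries was that of Tapbp, highest in replicate 1 and lowest in replicate 2. Uggt1, which returns unfit class I molecules to calreticulin, did not pass at 1.79 ± 1.20 TPM. Tapbpl and Uggt1 are named after their values were seen.

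Psmb8, Psmb9 and Psmb10 are the catalytic subunits that replace Psmb5, Psmb6 and Psmb7 when a cell builds immunoproteasomes, which change how proteins are cut. Psmb10 (chromosome 8, 106662367 to 106665076) had 1122, 1845 and 1231 counts, or 37.3, 67.5 and 45.9 TPM, in replicates 1, 2 and 3. Psmb8 (chromosome 17, 34416695 to 34420428) had 1579, 1387 and 1742 counts, or 39.9, 38.5 and 49.4 TPM. Psmb9 (chromosome 17, 34400961 to 34406738) had 197, 228 and 488 counts, or 3.80, 4.83 and 10.5 TPM. Psmb10 was highest in replicate 2, and Psmb8 and Psmb9 were highest in replicate 3. Psmb10 (50.2 ± 15.5 TPM) and Psmb8 (42.6 ± 5.92 TPM) passed the test against 10 TPM (limma, adjusted p = 0.00142 and 0.000965), and Psmb9 (6.39 ± 3.64 TPM) passed that against 1 TPM (adjusted p = 0.00959). With principal transcripts Psmb9 stood at 11.6, 15.3 and 33.0 TPM and still did not pass against 10 TPM (limma, adjusted p = 0.174).

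Each immunoproteasome subunit was below its standard counterpart in 3 of 3 libraries, by very different amounts. Psmb10 was nearest, at 47.1%, 80.2% and 78.6% of Psmb7 in principal-transcript TPM in replicates 1, 2 and 3. Psmb8 stood at 26.4%, 30.6% and 31.1% of Psmb5. Psmb9 stood at 0.918%, 1.32% and 2.48% of Psmb6, which was among the most abundant proteasome transcripts at 1251 ± 86.5 principal-transcript TPM. The log2(TPM + 1) differences, immunoproteasome minus standard subunit, were -0.58 ± 0.43, -1.76 ± 0.13 and -6.03 ± 0.69 for Psmb10, Psmb8 and Psmb9 with principal transcripts. On the deposited scale they were -0.58 ± 0.43, -2.69 ± 0.13 and -6.28 ± 0.62. The ranges over libraries of the 3 pairs did not overlap on either TPM scale. In CPM without length the range was -1.06 to -0.82 for Psmb8 and -0.90 to -0.14 for Psmb10, which overlapped. The separation of Psmb8 from Psmb10 thus depended on the use of gene length.

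**Figure D2:**
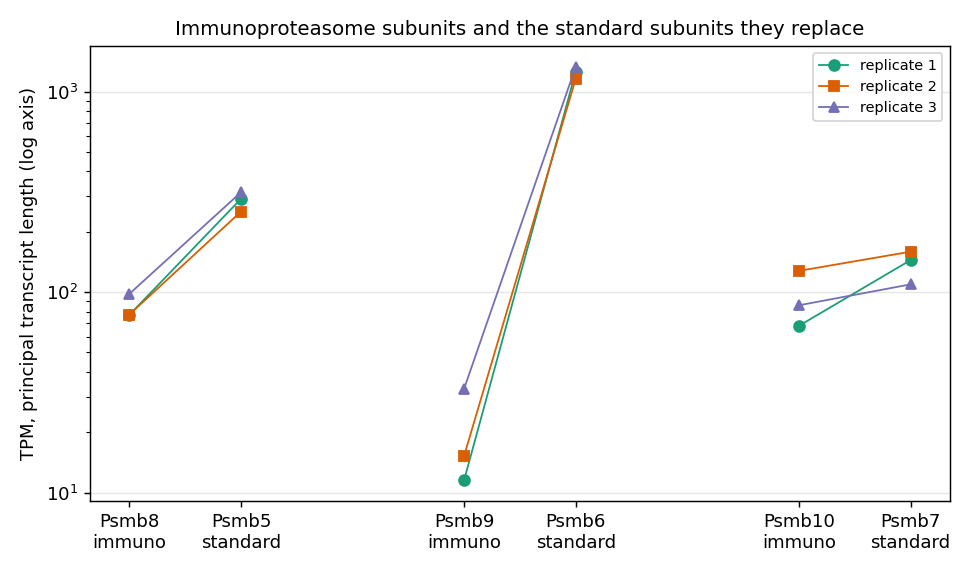
Principal-transcript TPM, on a log axis, of each immunoproteasome subunit (left point of a pair) and of the standard subunit it replaces (right point), with a line per library. All 9 lines climb from the immunoproteasome to the standard subunit, least for Psmb10 with Psmb7 and most for Psmb9 with Psmb6, which stood at 1251 ± 86.5 TPM.

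The other proteasome genes give the scale of these values. The 3 standard catalytic subunits all passed both tests, at 533 ± 41.5 TPM for Psmb6, 281 ± 33.5 TPM for Psmb5 and 74.4 ± 13.7 TPM for Psmb7. Of 12 other subunits of the core particle 11 passed both tests. On the deposited scale Psmb2 (727 ± 84.8 TPM), Psma6 (426 ± 99.2 TPM), Psma2 (310 ± 52.0 TPM) and Psma1 (289 ± 125 TPM) led, while with principal transcripts Psmb2 (833 ± 99.1 TPM) was followed by Psma1 (533 ± 231 TPM) and Psma2 stood at 252 ± 40.7 TPM. The exception, named after its values were seen, was Psmb11, the subunit of the thymic epithelium, with 48, 1 and 0 counts in replicates 1, 2 and 3. All 5 activator and assembly genes passed against 1 TPM and 3 against 10 TPM. The assembly factor Pomp stood at 117 ± 38.5 TPM, and Psme2 and Psme1, the interferon-inducible subunits of the activator that caps the proteasome, at 88.0 ± 4.75 and 43.8 ± 3.84 TPM. Psme3, of a related activator, stood at 16.1 ± 8.44 TPM and did not pass against 10 TPM (limma, adjusted p = 0.46).

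Psmb9 and Tap1 lie head to head and are read from a shared promoter region. Their annotated spans overlap by 212 bp in GRCm39, and their RefSeq windows share 275 bases (chr17:34187306-34187580, GRCm38.p6). The Tap1 window, chr17:34187306-34187605 on the plus strand, is shown since nearly all of it also lies in the Psmb9 window on the other strand, with capitals as above.
Tap1: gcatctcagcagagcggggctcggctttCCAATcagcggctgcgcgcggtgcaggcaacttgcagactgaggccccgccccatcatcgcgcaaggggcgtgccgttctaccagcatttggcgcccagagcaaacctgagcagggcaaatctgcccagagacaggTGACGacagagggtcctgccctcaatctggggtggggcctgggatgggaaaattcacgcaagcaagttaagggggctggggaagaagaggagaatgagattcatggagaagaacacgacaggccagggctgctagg
It held a Y box at position -222 and an X2 core at -86 from the Tap1 start, and neither the response element nor the kappa B motif as spelled here. Psmb9 exceeded Tap1 by 16.5, 6.30 and 22.7 times in principal-transcript TPM in replicates 1, 2 and 3. The log2(TPM + 1) difference, Psmb9 minus Tap1, was 2.98 ± 0.78 with principal transcripts and 2.09 ± 0.68 on the deposited scale. Psmb9 was highest in replicate 3 and Tap1 in replicate 2, while both were lowest in replicate 1. Of the other windows searched, that of Psmb8 held a match to the gamma-activated site (TTCNNNGAA, in 8.3% of promoters) at -97, that of Tapbp held 2 Y boxes, and that of Psmb10 held none of the motifs.

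The differences within all 7 pairs of genes kept 1 sign in 3 of 3 libraries. For each pair the two-sided exact permutation test, which flips the sign of each library's difference, gave p = 0.25, the smallest that 3 libraries allow, and p = 0.25 after Benjamini-Hochberg adjustment over the 7 pairs, so none could reach 0.05.

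Nlrc5, the class I transactivator, was the lowest of the 10 genes (chromosome 8, 95160984 to 95253900). It had 17, 23 and 25 counts, or 0.200, 0.298 and 0.330 TPM, in replicates 1, 2 and 3, above the floor of 3 counts in each. The exact 95% binomial intervals of 0.536 to 1.47, 0.966 to 2.29 and 1.15 to 2.62 CPM overlapped, which is no test of a difference between libraries. It did not pass against 1 TPM on either scale (limma, adjusted p = 1.0 on both). The genes nearest to Nlrc5 in level over the 3 libraries were Zfp469, Entpd7 and Rbm20, which lay within 0.03, 0.05 and 0.06 log2(TPM + 1) of it in each. Those nearest to B2m were Otor, of the inner ear, and the mitochondrially encoded mt-Co2 and mt-Atp6, within 0.34, 0.38 and 0.39.

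Beside Nlrc5, 16 other regulators of class I genes were counted, of which 9 stood above 1 TPM and 1 above 10 TPM (11 and 3 with principal transcripts). Rfxap, a subunit of the RFX complex that binds the X box, stood at 24.3 ± 6.94 TPM, and Rfxank, another subunit, at 10.2 ± 2.16 TPM. Rfx5, the subunit that contacts DNA, did not pass at 1.39, 2.09 and 0.0306 TPM in replicates 1, 2 and 3. Of the Y box factors, Nfyc stood at 22.4 ± 12.2 TPM and Nfyb at 16.9 ± 10.0 TPM, while Nfya did not pass at 0.141 ± 0.0686 TPM. Atf1, which binds the X2 box, stood at 13.5 ± 0.892 TPM. Irf1, which binds the response element, stood at 7.27 ± 3.88 TPM (limma, adjusted p = 0.00546). Rfxank, Rfx5, Nfya and Irf1 are named after their values were seen.

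Interferon receptors and their kinases were present, and the interferons listed were not counted at all. Of 7 receptor and kinase genes 5 stood above 1 TPM (6 with principal transcripts). Highest were the kinase Jak1 (23.1 ± 4.05 TPM), the receptor chains Ifnar2 (18.1 ± 6.64 TPM) and Ifngr1 (17.2 ± 1.93 TPM) and the kinase Jak2 (10.2 ± 6.46 TPM). The receptor chain Ifnar1 (3.43 ± 1.81 TPM) and the kinase Tyk2 (1.89 ± 0.725 TPM) did not pass (limma, adjusted p = 0.077 and 0.291). Ifnar1 passed with principal transcripts (limma, adjusted p = 0.0177). Both are named after their values were seen. All 7 interferon genes, Ifng, Ifnb1, Ifna2, Ifna4, Ifnk, Ifnl2 and Ifnl3, had 0 counts in every library, which allows up to 0.213 CPM each at the floor of 3 counts in the shallowest. Of 12 interferon-stimulated genes outside the class I pathway 9 stood above 1 TPM and 5 above 10 TPM (10 and 5 with principal transcripts). Ifi27l2a stood at 1486, 3502 and 4273 TPM and Bst2 at 194, 204 and 331 TPM in replicates 1, 2 and 3. Ifit3 stood at 384, 2734 and 282 TPM and Ifit1 at 53.3, 949.6 and 37.6 TPM in the same libraries. Ifit3 and Ifit1 were thus highest in replicate 2, and Ifi27l2a and Bst2 in replicate 3. The list summed to 2209, 7752 and 5081 TPM, and neutrophil markers to 20.2, 416 and 145 TPM, both highest in replicate 2. Their relation to the class I genes was not tested.

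The non-classical class I genes, whose products mostly pair with beta-2 microglobulin, were listed 23 times by symbol. Of these, 21 were found in the table and 17 had a count, and 8 stood above 1 TPM and 2 above 10 TPM (8 and 4 with principal transcripts). Over all genes tested the shares were 37.6% above 1 TPM and 14.7% above 10 TPM. Fcgrt, the neonatal Fc receptor that recycles IgG, stood at 87.0 ± 23.7 TPM and H2-T23, which shows peptides to natural killer receptors, at 69.5 ± 5.78 TPM. H2-Q2 stood at 19.8 ± 5.23 TPM and H2-M3, which presents formylated bacterial peptides, at 19.5 ± 7.05 TPM. With principal transcripts H2-T23 reached 184 ± 18.5 TPM, beside 97.2 ± 28.3 TPM for H2-K1. Cd1d1, which presents lipids, had 394, 198 and 0 counts in replicates 1, 2 and 3 and did not pass, and H2-M2 had 12, 0 and 189 counts and did not pass, both named after their values were seen. Genes of the H2-Q and H2-T groups share sequence with the classical heavy chains, and their levels are uncertain for the same reason.

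MHC class II genes, which present peptides from outside the cell and are made by professional antigen-presenting cells such as macrophages, were counted for comparison. Of 9 genes 6 stood above 1 TPM and 2 above 10 TPM, or 6 and 5 with principal transcripts. The invariant chain Cd74 stood at 51.2 ± 4.14 TPM, H2-DMb1 at 32.5 ± 10.2 TPM, H2-Aa at 10.2 ± 3.26 TPM and H2-Ab1 at 10.11 ± 4.13 TPM. With principal transcripts H2-Aa and H2-Ab1 stood at 25.7 ± 8.69 and 27.1 ± 11.2 TPM. Ciita, the class II counterpart of Nlrc5 and named after its values were seen, had 0, 0 and 2 counts, below the floor. Of 7 genes listed as class I receptors or their relatives 1 passed, Lilrb4a, an inhibitory receptor related to Pirb, at 5.96 ± 1.25 TPM. With its principal transcript Lilrb4a stood at 52.1 ± 11.6 TPM and passed against 10 TPM (limma, adjusted p = 0.000559). Cd8a had 46, 0 and 0 counts and Pirb, which binds class I molecules, stood at 2.80 ± 1.69 TPM without passing, and none of the 10 T and NK cell markers passed.

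**Figure D3:**
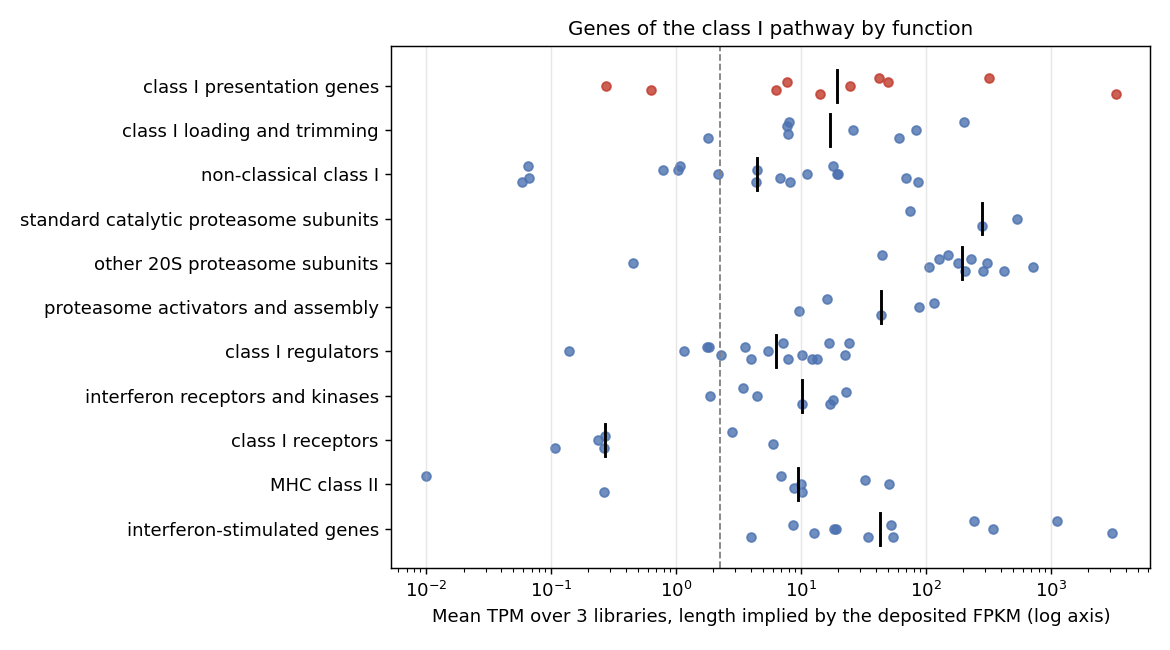
Mean TPM over 3 libraries (deposited length, log axis) of each gene with a count, by list, with the 10 class I presentation genes in the top row. Points are genes, black bars the median of a list and the dashed line the median of all genes tested, 2.24 TPM. The class I presentation genes have a median of 19.4 TPM and reach from 0.276 to 3335 TPM, and the interferons are not drawn because all had 0 counts.

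Between libraries the 10 genes varied about as much as other genes. The median SD of log2(TPM + 1) was 0.42 for the 10 genes, beside 0.46 over all genes tested and 0.49 over genes above 1 TPM. The ratio of the highest to the lowest library in CPM was 3.72 for Tap1, 3.66 for Tapbp, 3.24 for Psmb9 and 3.23 for Tap2, and between 1.44 for Psmb8 and 2.13 for H2-D1 for the other 6. In CPM, replicate 1 was the lowest library for 7 of the 10 genes and replicate 2 for 3, and replicate 3 for none, beside 25.8%, 38.9% and 35.3% of genes above 1 TPM lowest in replicates 1, 2 and 3. In TPM the counts were 5, 4 and 1, since B2m was then lowest in replicate 3 and Psmb8 in replicate 2, beside 17.8%, 41.9% and 40.3% of genes. On both scales replicate 1 was highest for 1 gene, replicate 2 for 3 and replicate 3 for 6, beside 32.1%, 25.4% and 42.5% of genes above 1 TPM in CPM, and 43.7%, 21.6% and 34.7% in TPM. With TMM or DESeq2 scaling, Nlrc5 alone among the 10 changed its highest library from that in CPM, to replicate 2. Of the 18 macrophage markers 9 were lowest in replicate 1, 5 in replicate 2 and 4 in replicate 3, in TPM. The pan-leukocyte markers summed to 778, 582 and 1102 TPM in replicates 1, 2 and 3, and to 210.0, 259.9 and 246.7 TPM without Cyba, so that the order of libraries turned on 1 gene. The part of cell makeup in the order of libraries was not tested.

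**Figure D4:**
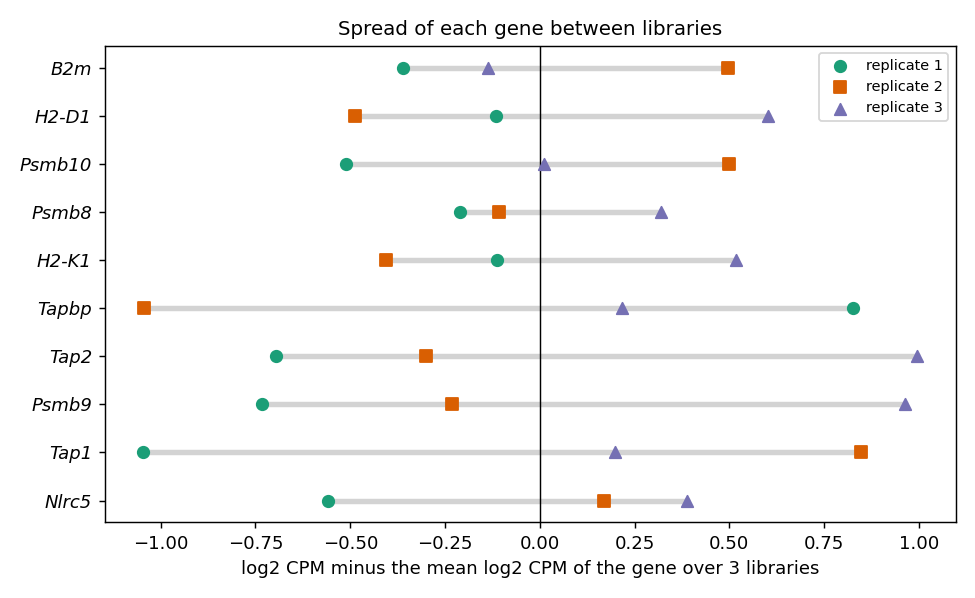
For each class I presentation gene, log2 CPM in each library minus its mean over the 3 libraries. Grey lines join the lowest and highest library, H2-D1 and H2-K1 have the same order of libraries, Tap2, Psmb9, Psmb8 and Nlrc5 share another, and Tapbp is the gene with replicate 1 on the right.

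In order of level on the deposited scale the genes were B2m, H2-D1, Psmb10, Psmb8, H2-K1, Tapbp, Tap2, Psmb9, Tap1 and Nlrc5. Neighbours in this order were held apart where the difference had 1 sign in 3 of 3 libraries and a mean above its SD, which failed for Psmb10 with Psmb8 (0.20 ± 0.51 log2) and Tapbp with Tap2 (0.72 ± 1.20). With principal transcripts the order was B2m, H2-D1, H2-K1, Psmb10, Psmb8, Psmb9, Tapbp, Tap2, Tap1 and Nlrc5. On that scale H2-K1 and Psmb10 (0.06 ± 0.78), Psmb10 and Psmb8 (0.12 ± 0.52) and Psmb9 and Tapbp (0.05 ± 1.28) could not be held apart. B2m and H2-D1 at the top and Tap1 and Nlrc5 at the bottom kept their places on both scales.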

How the data were processed

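RNA of 3 libraries of vestibular cells was analysed from 1 deposited table. Per the file headers, it gives raw counts and FPKM for every gene and library. HISAT2, StringTie, edgeR and the build GRCm39 appear in the submitters' processing notes, without versions or roles. The deposited FPKM was the count over the library's total and over 1 length per gene, with lengths that differed between libraries by at most 0.0528%. FPKM was rescaled to TPM. Of 57180 genes, 51884 matched GENCODE M21, and counts were also divided by the principal transcript length there (25973 genes tested). Promoter sequences came from RefSeq (GRCm38.p6), matched by symbol for 8 of the 10 genes, all except Tap2 and Nlrc5.

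Levels were tested with limma 3.58.1 (R 4.3.3) on log2(TPM + 1), a scale that understates differences between low genes, in an intercept-only model with a trend, one-sided, against 1 and 10 TPM. The 27265 genes counted in any library entered, p-values were adjusted by Benjamini and Hochberg, and calls used a threshold of 0.05. Alternatives used edgeR 4.0.16, DESeq2 1.42.0, other pseudocounts (0.1 and 5), other filters and each library left out. The limma step was tested on simulated data. Total counts were 18460546, 15086854 and 14095521 in replicates 1, 2 and 3.

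The 10 genes, gene lists and pairs were chosen with earlier results of these data known. Named are all 10 genes, the genes of the pairs, the 4 highest genes of each pathway list, at most 3 of a marker list, and the 3 protein-coding genes nearest in level to the highest and to the lowest of the 10. Further genes were named after their values were seen, among them markers that did not pass.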

Additional observations from a re-analysis of the deposited data

How the results depend on the processing

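No comparison between groups, paired or not, was possible because the labels give 1 group. The count of class I presentation genes above 1 TPM was 8 in all alternatives except without a filter on uncounted genes, where it was 5. The count above 10 TPM lay between 4 and 6, and was 1 without the filter, where Tap2, Tapbp and Psmb9 lost the call above 1 TPM (limma, adjusted p = 0.0949, 0.0928 and 0.107) and B2m, H2-K1, H2-D1 and Psmb10 that above 10 TPM (0.102, 0.243, 0.0526 and 0.104). The cause was not tested. Leaving out each library gave 8 genes above 1 TPM each time, and 4 to 5 above 10 TPM. Principal transcript lengths, an alternative chosen after seeing the data, moved the mean log2(TPM + 1) beyond 1 SD for 6 genes, to 10.93 for B2m, 6.58 for H2-K1, 1.28 for Tap1, 6.40 for Psmb8, 4.26 for Psmb9 and 6.52 for Psmb10, against 11.66, 4.64, 0.69, 5.44, 2.78 and 5.64 with the deposited length. All 49 alternative values of the 7 within-library differences kept their sign. Coding lengths from RefSeq proteins were planned and not run. Depth limits Nlrc5 and Tap1, which rest on 17 to 79 counts a library.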
